A study of Mus musculus with 2 samples.

Results

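The 46 synaptic vesicle and release genes were a fixed list of mouse genes named for their place in transmitter release, and all 46 were found among 21670 protein-coding genes (autosomes and X) in the GENCODE M21 annotation. The rule named the genes and used no threshold on a measured value, but the list was drawn up with earlier results of these data known. The list held 10 vesicle proteins, 11 calcium sensors, 9 SNAREs and their partners, and 16 proteins of the active zone. DNase-seq, in which DNase I cuts mark open chromatin, was measured in cerebellum of male B6CASTF1/J mice, first-generation hybrids of C57BL/6J and CAST/EiJ, at an age of 4 days. There was 1 group with 2 libraries, numbered biological replicates 1 and 2, and each label named 3 males, so each library may pool animals. No treatment, mutation or second tissue was compared, and every difference below is either between the libraries or between the listed genes and all protein-coding genes.

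At a chemical synapse, transmitter is held in vesicles that dock at the active zone of the axon terminal, and calcium entry drives their fusion with the plasma membrane. Fusion is carried out by SNARE proteins, one kind on the vesicle and the others on the target membrane, under the control of synaptotagmins, which bind calcium, and complexins, which hold and assist the SNARE complex. Scaffold and priming proteins of the active zone place vesicles close to calcium channels. In mice of this age the cerebellum is still being built: granule cell progenitors divide in the external layer and most parallel fibre synapses have not yet formed.

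Replicate 1 held 61744 peaks and replicate 2 held 131460 in the larger of the deposited peak lists, with 112201 and 261231 footprints, which are short stretches protected from cutting inside open sites. Every peak value was a whole multiple of a library-specific step, and the depth in reads is unknown. Promoters of the granule cell lineage list were open for 8 of 10 genes in each library, with summed values of 10.2 and 12.9. Barhl1 of that list had no peak in either library, Pax6 had one in replicate 2 alone and Barhl2 in replicate 1 alone. Of its 7 genes open in both, 4 were higher in replicate 1, with a median log2 ratio of replicate 1 over replicate 2 of 0.16 (all genes, −1.02), the highest being Zic1 (1.28). Purkinje cell genes were open for 6 of 8 in each library, with Pcp2 and Skor2 without a peak, oligodendrocyte lineage genes for 4 of 8 in each, and endothelial genes for 3 and 4 of 7. Microglia (7 genes), liver (4) and skeletal muscle (4) lists had no promoter peak in either library. Of these marker lists, 2 differed most between the libraries in the number of open promoters. Of 14 forebrain genes, 5 had a promoter peak in replicate 1 and 12 in replicate 2, with summed values of 4.61 and 21.7. Nkx2-1 and Lhx6 had none in either. Of 8 genes of astrocytes and Bergmann glia, 3 had one in replicate 1 and 8 in replicate 2, with summed values of 4.17 and 10.6. Among genes open in both libraries, the median log2 ratio was −1.26 over 5 forebrain genes. Over 3 genes of astrocytes and Bergmann glia it was −0.23, and Hopx (0.56) was higher in replicate 1. The median ratio was −0.56 over 6 Purkinje cell genes, −0.70 over 4 oligodendrocyte lineage genes and −0.66 over 2 endothelial genes. Of the marker lists with values, only the forebrain list thus lay below the all-gene median. The part of these cell types or of neighbouring tissue in any value below was not tested. In bulk tissue, fewer cells with an open site and a less open site in each cell cannot be told apart.

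Selected reference sequences are shown first, because the results turn on where the open sites and their footprints lie. The 36 members that matched the RefSeq promoter table of GRCm38, the build of the files, had 46 promoters in it, each of 300 bases (250 before and 50 after the start). Doc2a, Vamp2, Rims2, Syn3, Snap25, Syt4, Syt5, Doc2b, Syt7 and Rims4 are named only. All 46 sequences matched the reference genome, which is C57BL/6J, so CAST/EiJ alleles are not shown. Capitals mark bases inside a footprint of both libraries, and each sequence runs 5′ to 3′ on the gene's strand. Ppfia1, a liprin-alpha with one of the strongest promoters of the list, is shown for the NRF1 word GCGCATGC inside its last block of capitals. Stx1a, the plasma-membrane SNARE syntaxin-1A, is shown for a footprint over GGGCGG beside its start. Syn1, the vesicle tether synapsin I, is shown because it alone held a full CRE word, TGACGTCA, which lies outside the capitals. Ppfia4, another liprin-alpha, has an upstream and a downstream start whose values differ, and Cplx3, a complexin best known from ribbon synapses of the retina, had no footprint of either library.
Ppfia1, chr7:144553680-144553979, minus strand: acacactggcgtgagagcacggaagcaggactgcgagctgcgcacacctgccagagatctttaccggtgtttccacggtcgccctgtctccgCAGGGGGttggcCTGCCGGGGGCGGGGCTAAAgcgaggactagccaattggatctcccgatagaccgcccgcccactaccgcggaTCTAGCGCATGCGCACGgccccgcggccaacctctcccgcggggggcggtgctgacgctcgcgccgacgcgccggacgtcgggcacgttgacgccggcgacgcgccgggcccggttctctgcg
Stx1a, chr5:135023232-135023531, plus strand: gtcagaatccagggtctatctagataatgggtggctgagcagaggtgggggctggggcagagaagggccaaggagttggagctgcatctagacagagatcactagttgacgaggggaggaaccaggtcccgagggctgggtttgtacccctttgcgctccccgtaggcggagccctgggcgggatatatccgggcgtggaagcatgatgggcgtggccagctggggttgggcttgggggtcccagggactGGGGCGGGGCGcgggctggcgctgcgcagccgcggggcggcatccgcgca
Syn1, chrX:20920869-20921168, minus strand: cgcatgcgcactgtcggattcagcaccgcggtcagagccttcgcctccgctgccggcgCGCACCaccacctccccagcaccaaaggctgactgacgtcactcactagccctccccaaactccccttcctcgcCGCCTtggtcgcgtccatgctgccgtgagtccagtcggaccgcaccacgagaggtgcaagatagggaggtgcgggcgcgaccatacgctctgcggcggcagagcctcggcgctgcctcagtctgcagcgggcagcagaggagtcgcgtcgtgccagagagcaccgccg
Ppfia4 upstream start, chr1:134344667-134344966, minus strand: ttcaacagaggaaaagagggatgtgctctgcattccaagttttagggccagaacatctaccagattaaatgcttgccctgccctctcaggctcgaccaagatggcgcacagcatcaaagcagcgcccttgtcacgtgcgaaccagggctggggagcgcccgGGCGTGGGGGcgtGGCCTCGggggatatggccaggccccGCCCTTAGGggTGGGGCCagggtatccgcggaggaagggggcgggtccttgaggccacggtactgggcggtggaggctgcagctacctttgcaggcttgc
Ppfia4 downstream start, chr1:134332879-134333178, minus strand: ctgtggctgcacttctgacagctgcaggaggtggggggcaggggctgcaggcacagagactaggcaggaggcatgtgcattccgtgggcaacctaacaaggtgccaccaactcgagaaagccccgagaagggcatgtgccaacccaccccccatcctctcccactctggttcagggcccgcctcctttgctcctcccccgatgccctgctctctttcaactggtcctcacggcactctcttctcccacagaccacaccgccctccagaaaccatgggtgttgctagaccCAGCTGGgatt
Cplx3, chr9:57606232-57606531, minus strand: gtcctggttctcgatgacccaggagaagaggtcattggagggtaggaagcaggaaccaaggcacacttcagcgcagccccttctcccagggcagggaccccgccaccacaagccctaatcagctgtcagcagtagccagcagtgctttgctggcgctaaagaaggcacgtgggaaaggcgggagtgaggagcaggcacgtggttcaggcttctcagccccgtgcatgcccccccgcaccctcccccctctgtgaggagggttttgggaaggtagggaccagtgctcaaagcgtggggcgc

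Nearly all of the release genes had an open promoter. A gene was counted as open in a library when a peak lay within 500 bp of one of its coding transcript starts, and the deposited signal of the strongest such peak was taken as its value. By this count 44 of 46 members (95.7%) were open in both libraries, against 58.9% of all protein-coding genes, a description of a list that was not chosen blind to these data. Replicate 1 had 44 open members (all genes, 59.9%) and replicate 2 all 46 (all genes, 65%). The exceptions were Doc2a, a high-affinity calcium sensor, with a value of 1.44 in replicate 2 and no peak in replicate 1, and Cplx3, with 0.805 in replicate 2 and no peak in replicate 1. Replicate 2 also had the larger number of peaks and more open forebrain and astrocyte promoters, and the part of either in these 2 genes was not tested. With only the strongest peaks of replicate 2, as many as replicate 1 holds, both genes kept their peak in replicate 2, while Sv2b and Syt9 were open in replicate 1 alone. In the stricter deposited list 39 members (all genes, 52.3%) were open in both libraries, and Cplx3 in neither.

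The base composition of the promoters bears on this share, because CpG-rich promoters are open in most tissues. All genes were split into 10 classes of like size by the number of CpG dinucleotides within 500 bp of a start, the highest over a gene's starts. That start need not be the one that gave the value. Syt11 was classed by 49 CpG, where its strongest start had 30, and Rims2 by 121, where its strongest start had 38. No member fell in the 3 poorest classes, where at most 10.2% of all genes were open in both libraries. In the fourth class, with 21 to 34 CpG, 7 of 8 members were open in both libraries, against 39.1% of all genes of that class. These 8 were Syn3, Sv2a, Syt4, Snap25, Cplx3, Unc13c, Rimbp2 and Ppfia4, with Cplx3 the one not open in replicate 1. In the 6 richer classes 37 of 38 members were open in both, close to the 89.9% of all genes there. The widest gap between members and their class was thus in the class poorest in CpG of those that held any, on a count of 8 genes. In the stricter deposited list, Rimbp2 and Ppfia4 had a promoter peak in replicate 2 alone and Cplx3 in neither library. The share of all genes of this class in that list was not computed.

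**Figure D1:**
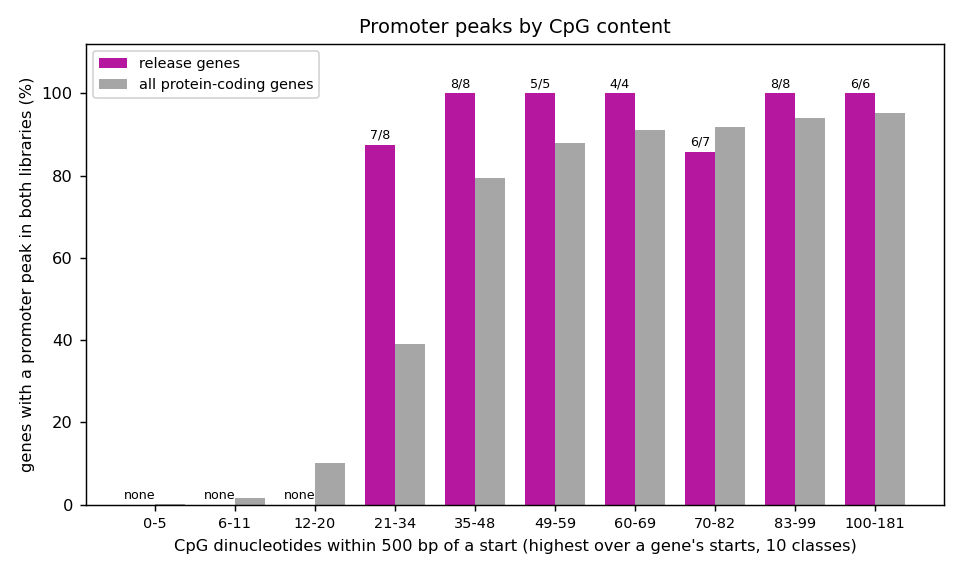
Share of genes whose promoter was open in both libraries (vertical axis, %) by class of CpG number (horizontal axis), for the release genes (magenta, with the number open of the number in the class) and all protein-coding genes (grey). Release genes are absent from the 3 lowest classes, and in the class of 21 to 34 CpG 7 of 8 were open against 39.1% of all genes.

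Open, however, did not mean strong. Among genes with a peak in the library, the median promoter value of the members was 1.49 in replicate 1 and 3.01 in replicate 2, against 2.11 and 4.00 over all open genes. In replicate 1, 28 members lay under the all-gene median, and in replicate 2, 30 did; 25 did so in both. Compared with genes of the same CpG class, 28 and 27 of the 44 members open in both libraries lay under their class median in replicates 1 and 2. In replicate 1, 2 of the 44 open members reached the highest 10% of open genes and 17 lay in the lowest 25%. In replicate 2, 2 of the 46 reached the highest 10% and 9 lay in the lowest 25%. The lowest 25% thus held more than its share of the members in replicate 1 and less in replicate 2. By gene length, the 18 members among the longest 10% of genes had medians of 1.26 and 2.60 in replicates 1 and 2. All genes of that length had 1.44 and 2.42. The 28 shorter members had 1.58 and 3.53, and all shorter genes had 2.21 and 4.23. Members were thus below genes of like length in both libraries only among the shorter ones. All 18 long members were open in both libraries (all genes of that length, 83.8%), and 26 of the 28 shorter (all shorter genes, 56.2%).

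**Figure D2:**
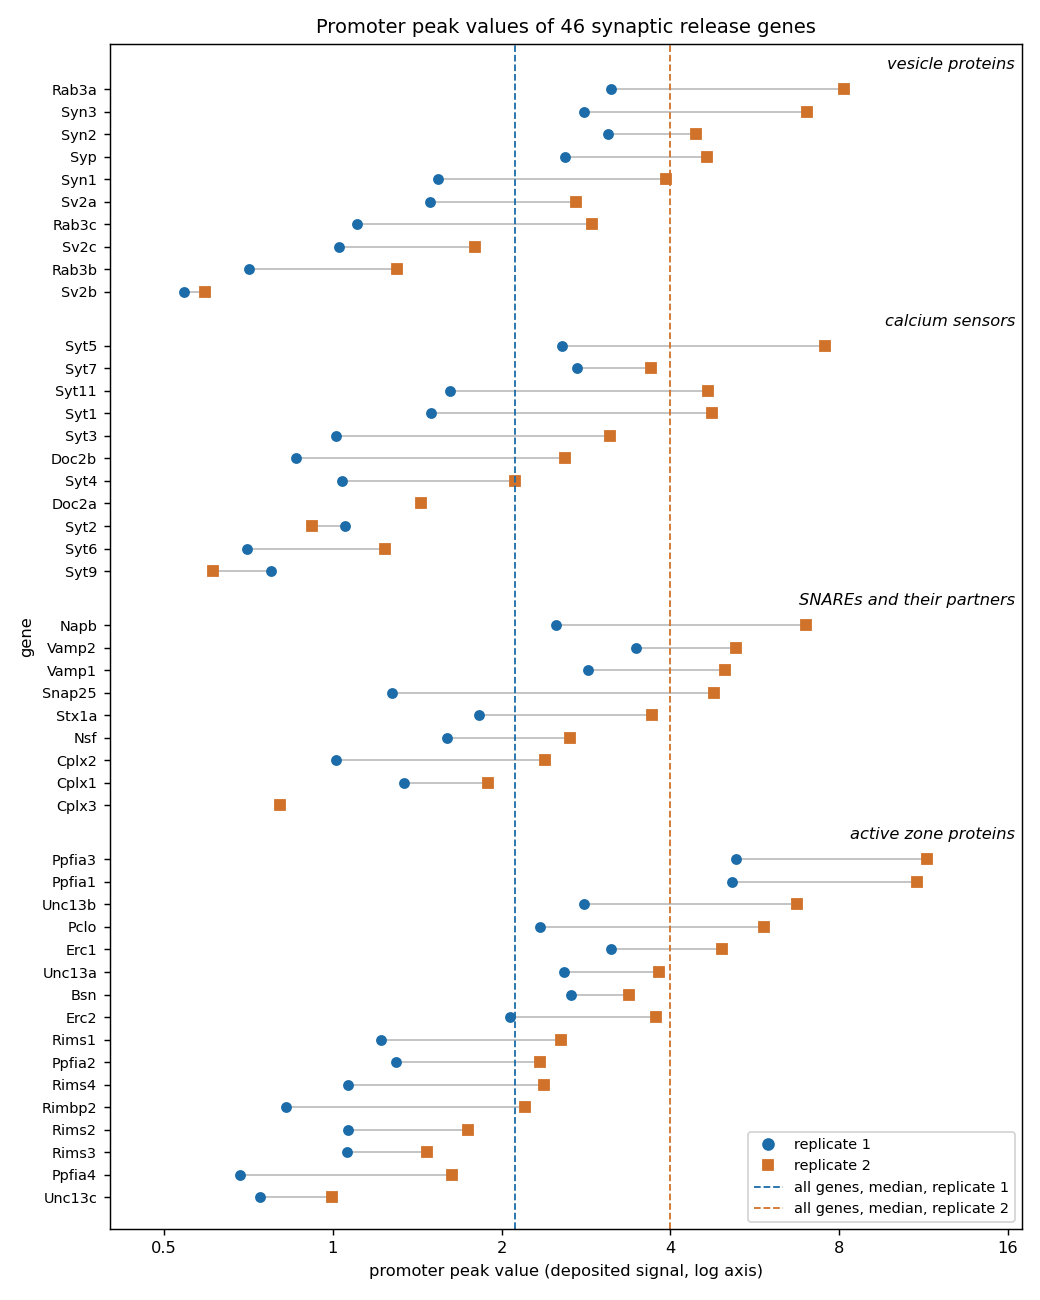
Promoter peak value (horizontal log axis, deposited signal) of each of the 46 genes, grouped by role and ordered by mean value, in replicate 1 (blue circles) and replicate 2 (orange squares); dashed lines give the medians over all open genes, 2.11 and 4.00. Most members lie left of the line of their library, Ppfia3 and Ppfia1 stand far to the right, and Doc2a and Cplx3 have no value in replicate 1.

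All 10 vesicle proteins were open in both libraries, with median values of 1.52 and 3.41 in replicates 1 and 2. Rab3a, a small GTPase that cycles on and off vesicles and lies at chr8:70754679-70758677, was the strongest, with 3.14 and 8.18. The 3 synapsins, which tether vesicles in the reserve pool, differed among themselves. Syn3 had 2.81 in replicate 1 and 7.02 in replicate 2, from a promoter of only 29 CpG. Syn2 had 3.10 and 4.45, and Syn1 had 1.54 and 3.92. Syn1 was thus the lowest of the 3 in both libraries, while Syn2 and Syn3 changed places between them. Syp (synaptophysin, an abundant vesicle membrane protein) had 2.59 in replicate 1 and 4.66 in replicate 2. Of the SV2 glycoproteins, Sv2a, the binding site of the antiepileptic drug levetiracetam, had 1.49 and 2.71, and Sv2c had 1.03 and 1.79. Of all members with a peak in a library, Sv2b was the weakest in both, at 0.542 in replicate 1 and 0.592 in replicate 2. Doc2a and Cplx3 had no peak in replicate 1. If 1 step of value stands for 1 counted cut, the exact 95% Poisson intervals of these Sv2b values are 0.432 to 0.671 and 0.475 to 0.729, for counting error only. They overlap on the deposited scale, where the median log2 ratio of replicate 1 over replicate 2 was −1.02 over all genes. The overlap thus does not show that the libraries agree, and the Sv2b ratio lay 0.90 above that median. Rab3b (0.710 and 1.30) and Rab3c (1.10 and 2.90) were below Rab3a in both libraries.

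The calcium sensors had the lowest medians of the 4 roles, 1.05 in replicate 1 and 2.86 in replicate 2, over the 10 of 11 genes open in both. Syt1, the main fast sensor of forebrain synapses, had 1.497 and 4.75. Syt2, the fast sensor that prevails in the hindbrain and cerebellum, had 1.05 in replicate 1 and 0.918 in replicate 2. It was 1 of only 2 members whose value was higher in replicate 1, and its strongest peaks in the libraries lay at different starts: 1.05 and 0.792 at the upstream start, 0.832 and 0.918 at a start 62623 bp downstream. The other was Syt9, also a fast sensor, with 0.774 in replicate 1 and 0.612 in replicate 2, although its promoter was among the richest in CpG (115). Intervals for counting error only were 0.642 to 0.926 and 0.493 to 0.751 for Syt9. They overlap on the deposited scale, but its log2 ratio of replicate 1 over replicate 2 lay 1.36 above the all-gene median. Syt7, a slow sensor tied to asynchronous release, had 2.72 and 3.69, and Syt5 had 2.56 and 7.54, the highest value among sensors in replicate 2. That value came from a start 568 bp downstream of its first, where it had 0.929 and 4.10, below the 4.75 of Syt1 in replicate 2. Syt11 and Syt4, synaptotagmins that bind calcium poorly or not at all, had 1.62 and 4.67, and 1.04 and 2.12. The value of Syt11 came from a start 2565 bp downstream of its first, which itself had no peak in replicate 1 and 0.479 in replicate 2. Syt3 had 1.01 and 3.13, Doc2b had 0.858 and 2.59, and Syt6 had 0.703 and 1.24, the last from peaks at different starts in the libraries.

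Of the 9 SNAREs and their partners, 8 were open in both libraries, and their medians were 1.71 in replicate 1 and 4.25 in replicate 2. Vamp2, the main vesicle SNARE, had 3.47 and 5.24, and its relative Vamp1 had 2.85 and 5.01. Of their partners on the plasma membrane, Stx1a had 1.82 and 3.71. Snap25, at chr2:136713453-136782428, had 1.28 in replicate 1 and 4.79 in replicate 2, the largest shift towards replicate 2 of any member. The recycling factors that take used SNARE complexes apart were Napb (beta-SNAP), with 2.50 and 6.998, and the ATPase Nsf, with 1.60 and 2.65. The complexins were all below the all-gene medians: Cplx1 had 1.34 and 1.89, Cplx2 had 1.01 and 2.39, and Cplx3 had its single value of 0.805 in replicate 2.

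All 16 active zone genes were open in both libraries, with medians of 1.68 and 2.96 in replicates 1 and 2, and they spanned almost the whole range of the list. The liprin-alpha genes, scaffolds that help assemble active zones, held the 2 highest promoters of the list and, in replicate 1, the lowest of this role. Ppfia3 had 5.24 in replicate 1 and 11.49 in replicate 2, and Ppfia1, which is expressed well beyond neurons, had 5.15 and 11.02. Ppfia2 had 1.30 and 2.34, and Ppfia4 had 0.684 and 1.63. Among the Munc13 proteins, which prime vesicles for fusion, Unc13b had 2.81 and 6.72 and Unc13a had 2.59 and 3.83. Unc13c, the form known for its expression in cerebellar granule cells, had 0.742 in replicate 1 and 0.998 in replicate 2, far below both. The giant scaffolds Pclo (piccolo) and Bsn (bassoon) had 2.34 and 5.88, and 2.66 and 3.37. The ELKS proteins Erc1 and Erc2 had 3.14 and 4.95, and 2.07 and 3.77. The RIM proteins, which draw calcium channels to the release site, all lay under the all-gene medians: the values of Rims1, Rims2, Rims3 and Rims4 lay between 1.06 and 1.22 in replicate 1 and between 1.47 and 2.55 in replicate 2. Rimbp2, which links RIMs to calcium channels, had 0.826 and 2.20.

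The libraries ranked the members alike. Over the 44 members open in both, Pearson's r of log2 values was 0.876 and Spearman's rho was 0.871 (all open genes, rho 0.906), as a description across genes that share both libraries. The values of the members were lower in replicate 1, with a median log2 ratio of replicate 1 over replicate 2 of −0.95 (SD over members 0.49). Over all genes open in both libraries the median was −1.02. Syt2 (0.20) and Syt9 (0.34) were the 2 members, of 44, above 0, where 7.36% of all genes were. Relative to the all-gene median, 15 of 44 members lay more than 0.5 away, near the 36.5% of all genes that did. Snap25 (−1.91), Syt1 (−1.67) and Syt3 (−1.63) were the lowest. In 40 of the 44 members the strongest peaks of the libraries overlapped, near the 93.1% of all genes open in both, and in Syt2, Syt3, Syt6 and Erc1 they did not. Forebrain and astrocyte promoters were open more often in replicate 2, and 4 of 7 granule cell promoters were higher in replicate 1. The part of either in the ratios of Snap25, Syt1, Syt2 and Syt9 was not tested.

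**Figure D3:**
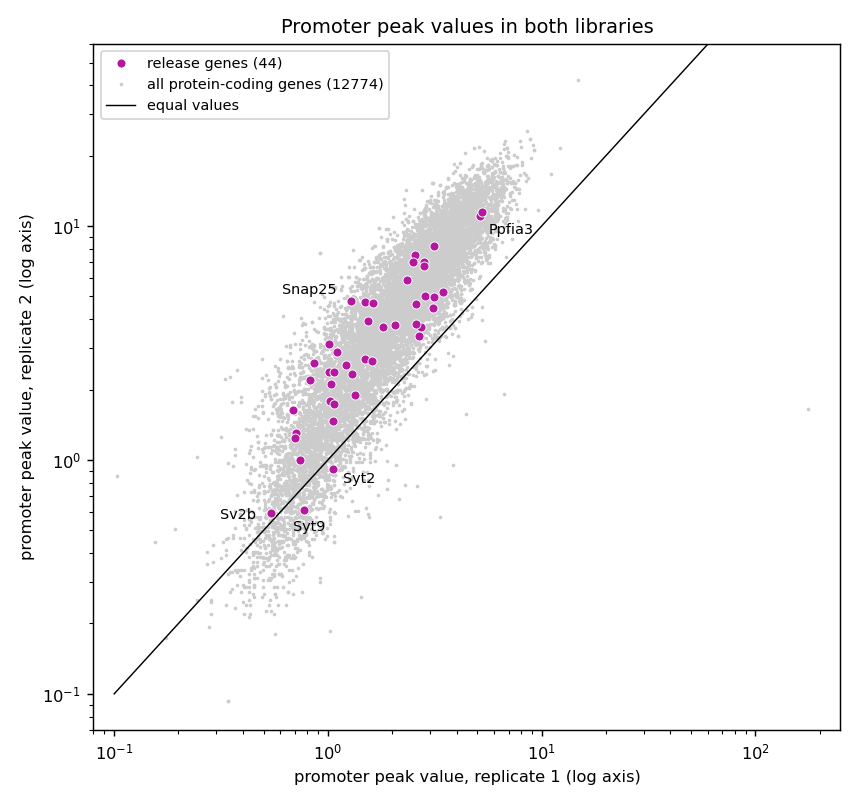
Promoter peak value in replicate 1 (horizontal log axis) and replicate 2 (vertical log axis) for the 44 release genes open in both libraries (magenta) over all 12774 such protein-coding genes (grey); the line marks equal values. Release genes follow the grey cloud, most of which lies above the line (median log2 ratio of replicate 1 over replicate 2, −1.02), and Syt2 and Syt9 are the only members below the line.

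Many of these genes have several starts. Coding starts closer than 500 bp were merged, which gave 84 start regions over the 46 genes. Of these 51 had a peak in both libraries, where 42.4% of the start regions of all coding genes did, 24 in neither, 8 in replicate 2 alone and 1 in replicate 1 alone. Of the 26 members with 2 or more start regions, 7 had at least 2 that were open in both libraries, beside 18.1% of all such genes: Sv2b, Rab3a, Rab3c, Syt2, Syt5, Unc13b and Rims2. For Sv2b a single peak served both regions. Rims2 had an internal start 461234 bp downstream of the first with 1.06 in replicate 1 and 1.74 in replicate 2, against 0.852 and 1.64 at the first start. Unc13b had one 150529 bp downstream with 0.639 and 1.42, against 2.81 and 6.72 at its first start. In Rab3c the upstream region had 0.774 in replicate 1 and 0.585 in replicate 2, whereas the region 716 bp downstream had 1.10 and 2.90, so the libraries differed in opposite directions within 1 gene.

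Some open promoters were not at a GENCODE coding start. Of the 46 RefSeq promoters, 39 had a peak in both libraries within 500 bp, and 5 started more than 500 bp from any coding start of their gene. Starts of a gene could share a peak, as those of Rab3a and some of Sv2b did. These counts were not made over all RefSeq promoters, so they describe the members alone. The upstream Ppfia4 start shown above lies 11788 bp from the coding start and had 2.34 in replicate 1 and 6.33 in replicate 2, against 0.684 and 1.63 at the coding start. It held 33 bases in footprints of both libraries, in GC-rich blocks, where the coding start held 7. By that start Ppfia4 would stand above the all-gene median in both libraries, which is not so at the coding start. For Cplx2 the order was the opposite: a RefSeq start 68793 bp away had 0.593 and 1.07, against 1.01 and 2.39 at the coding start.

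Footprints were found at nearly every open promoter. In the promoter windows, 43 of 46 members had at least 1 footprint in both libraries, against 56.5% of all protein-coding genes. All 43 were among the 44 open in both libraries, a share near the 95.7% of all genes open in both. The members held 166 footprints in replicate 1 and 285 in replicate 2. The median per member was 3 in replicate 1 and 6 in replicate 2, against 2 and 3 over all genes. In the 6 richer CpG classes it was 3.5 and 6 for members and 4 and 6 for all genes. Of the 166 footprints in replicate 1, 85 overlapped one in replicate 2. This overlap was not counted over all genes, so whether it is particular to the members is unknown. Sv2c, a modest promoter by value, had 9 in each library and 5 shared, and Erc1 had 8 and 10 with 7 shared, the most of any member. Ppfia3, with the highest values, had 2 in replicate 1 and 10 in replicate 2. Syt11, Doc2a and Cplx3 had none in replicate 1, and Cplx3 had none in replicate 2 either. Across the RefSeq promoters 3.38% of bases lay in footprints of both libraries.

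Short sequence words were counted in these promoters on both strands, beside 20054 RefSeq promoters of coding genes and the 14828 of them whose genes fell in the CpG classes that hold members. The E-box word CAGCTG stood in 15 of the 46 member promoters (32.6%), of 13 genes, against 15.8% of all coding promoters and 15.6% of those in the same CpG classes. Only 2 of its 15 places touched footprints of both libraries, in Unc13c and at the downstream Ppfia4 start, where the last capitals above cover it. Another E-box word, CATCTG, went the other way, in 8.70% of member promoters against 14.3% and 11.6%. The SP word GGGCGG stood in 69.6% of member promoters, against 47.9% and 61.8%, and 15 of 73 places touched footprints of both libraries. The ETS word CCGGAA was scarce, at 6.52% against 19.2% and 24.6%, and CCAAT stood in 26.1%, against 37.9% and 37.1%. The NRF1 word stood in Bsn, Ppfia1 and Syn1, at 7 places counting both strands, which overlap because the word is nearly its own reverse complement. All 7 touched a footprint in replicate 2 and 4 touched one in both libraries. These were the places in Ppfia1 and at the upstream site in Bsn, not those at the Bsn site nearer the start. Not every word searched is given here. Among the others, TTGGC stood in 52.2% of member promoters, against 48.3% and 49.6%, and GGACAG in 23.9%, against 22.7% and 22.9%. TGACG stood in 21.7%, against 24.3% and 29.5%. Promoters of 1 gene can overlap and share a word, as at Syt6. A word is a match of letters and not evidence that a factor binds.

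RE1, the element bound by the repressor REST, which silences neuronal genes outside neurons, was searched genome-wide by its consensus (named only, both strands). There were 2163 matches, of which 81 (3.74%) lay in a peak of both libraries. At the loci of the members, taken as the gene and 50000 bp on either side, there were 16 matches at 15 genes, and 2 lay in a peak of both libraries. Both were in Snap25, at 811 and 861 bp downstream of its start, in a peak of 1.42 in replicate 1 and 1.20 in replicate 2, and a footprint of each library touched the second. In replicate 2 alone, matches lay in peaks at Cplx2, Syn2 and Syt6, and in replicate 1 alone at Syt4. The Cplx2 and Syt6 matches are shown because they lie close to a start, at 379 and −1241 bp from it, with the match in capitals.
Cplx2, chr13:54371728-54371743, minus strand: TCAGCACCACAGCGAG
Syt6, chr3:103573990-103574005, plus strand: TCAGCACCGCGGACAG
The Syt6 match was touched by a footprint in replicate 2, in a peak of 0.672, and the Cplx2 match by none, in a peak of 2.39. None of the 46 RefSeq promoters held the full consensus, against 0.0648% of all coding promoters, so at this length its absence says little.

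Distal open sites were counted as peaks of replicate 1 that overlapped a peak of replicate 2, more than 1000 bp from any coding start, inside a gene or within 50000 bp of it. There were 182 at the 46 loci, and 42 members had at least 1, against 71.9% of all genes. The median was 4 per member and 2 per gene over all genes. By length, the 18 members among the longest 10% of genes had a median of 4, and all genes of that length had 3. The 28 shorter members had a median of 3.5, and all shorter genes had 1. Of the 182, 76 lay inside the member's own gene (65 in introns and 11 in exons), 38 inside another gene and 68 between coding genes, and no site was counted for 2 members. In 165 of the 182 (90.7%) a footprint was present in both libraries, against 83.8% of all shared distal peaks. Median values were 1.03 in replicate 1 and 1.63 in replicate 2. The median log2 ratio of replicate 1 over replicate 2 was −0.59 (all shared distal peaks, −0.49), and 31 of 182 (17.03%) were higher in replicate 1, against 24.7% of all shared distal peaks. Nothing here ties a site to the gene it was counted for.

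**Figure D4:**
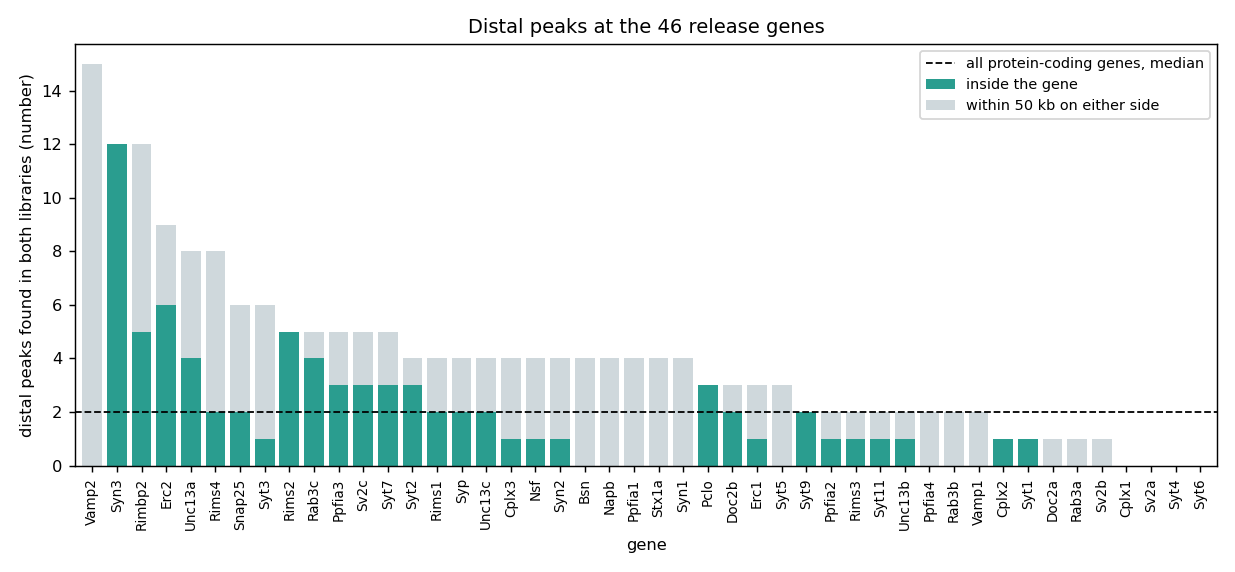
Number of distal peaks found in both libraries at each of the 46 genes (vertical axis), split into peaks inside the gene (green) and within 50 kb on either side (grey); the dashed line is the median of 2 over all protein-coding genes. Vamp2 has the most, 15, with none inside the gene, Syn3 has 12, all inside it, and Cplx1, Sv2a, Syt4 and Syt6 have none.

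The sites were unevenly shared out. Vamp2, a gene of 3895 bp, had 15, all outside it, and 1 of them lay inside the neighbouring clock gene Per1. The strongest distal site of any member in replicate 1 was among them, chr11:69110841-69111020, with 5.65 in replicate 1 and 6.71 in replicate 2, 22421 bp from the Vamp2 start. Syn3 had 12 in its own introns, over a body of 444 kb that also encloses Timp3, an inhibitor of matrix proteases, on the other strand. The strongest of the Syn3 sites, chr10:86463921-86464080, had 2.84 and 3.23. Rimbp2 also had 12, with 5 in its introns, and 6 of its sites were higher in replicate 1. Erc2, the longest member at 856 kb, had 9, with 6 in its introns. Long genes did not always hold many: Syt1, with a body of 513 kb, had 1, of 1.07 and 2.11, and Pclo had 3 weak ones, at most 0.787 in replicate 1. Sv2a, Syt4, Syt6 and Cplx1 had none.

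A pair of distal sites is shown for its footprints, on the plus strand, with capitals again marking bases in footprints of both libraries. The Unc13a site lies in an intron and was the strongest intronic site in replicate 1 among members that matched the RefSeq table, with 2.34 in replicate 1 and 4.13 in replicate 2. In replicate 2 a Cplx2 intron site, at 4.38, was above it. It held none of the words searched, and its 25 capitals form 1 block. The Syt3 site lies 21083 bp downstream of the Syt3 start, between coding genes, and was the member site with the largest log2 difference (−2.09): it had 2.44 in replicate 1 and 10.4 in replicate 2, the highest of any member site in replicate 2. Its capitals hold a full CRE word, TGACGTCA, and an NRF1 word, GCGCATGC. The promoter of Syt3 itself had 1.01 and 3.13, below this site in both libraries.
Unc13a intron, chr8:71660861-71661060: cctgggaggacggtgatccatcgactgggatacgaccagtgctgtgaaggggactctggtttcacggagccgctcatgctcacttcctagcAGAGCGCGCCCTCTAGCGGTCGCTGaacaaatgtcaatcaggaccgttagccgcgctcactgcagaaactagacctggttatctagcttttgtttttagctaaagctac
Syt3 downstream, chr7:44405821-44406080: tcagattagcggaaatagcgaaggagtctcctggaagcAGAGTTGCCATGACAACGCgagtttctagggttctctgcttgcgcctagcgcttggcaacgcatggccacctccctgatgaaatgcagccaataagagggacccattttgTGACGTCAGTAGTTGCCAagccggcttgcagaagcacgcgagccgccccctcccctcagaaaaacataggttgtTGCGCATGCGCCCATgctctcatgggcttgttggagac
At 4 of the 182 sites a RefSeq promoter lay at the peak: the Ppfia4 site above, and sites counted for Stx1a, Unc13a and Rims4 at the starts of Abhd11os, Gm39195 and Gm35886.

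Other genes of the pathway, from 3 further lists, gave a frame for these values. Of 36 other genes of fusion, 32 were open in both libraries, with medians of 1.25 in replicate 1 and 2.57 in replicate 2, and Cplx4, Doc2g, Syt8 and Syt15 had no promoter peak in either. The leading genes there were Snap29, a widely expressed SNARE (6.599 and 17.65), and Rab3gap2, a subunit of the enzyme that acts on Rab3 (6.199 and 11.99). Of 14 other vesicle genes, 10 were open in both, with medians of 1.99 in replicate 1 and 3.59 in replicate 2. Syngr4, a synaptogyrin, led with 4.01 and 7.74, with Dnajc5, a vesicle chaperone, at 3.16 and 8.72. Slc17a8, a vesicular glutamate transporter, had no peak in either library. Named after their values were seen, Slc17a7 and Slc32a1, the main glutamate and GABA transporters of vesicles, and Syngr3 had a peak in replicate 2 alone. All 21 genes of vesicle recycling were open in both libraries, with medians of 2.33 and 6.83, above the all-gene medians in both. Sh3gl1, an endophilin (7.01 and 12.7), and Ap2a1, an adaptor subunit of clathrin coats (4.70 and 15.7), led that list. Across the 3 lists 63 of 71 genes were open in both libraries, beside 44 of 46 release genes and 58.9% of all genes.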

How the data were processed

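DNase-seq was analysed in 2 libraries of 1 group, with no test between conditions. Peaks, false discovery rate intervals and footprints were deposited by the authors for each library on the assembly mm10, per the labels; no aligner, caller or version is named in the sources used here. Peak values are those of the signal column deposited by the authors, whose scaling factor is unknown here; they were whole multiples, to within 0.05 steps, of 0.00645 (replicate 1) and 0.00665 (replicate 2). The deposited false discovery rates (q-values per interval, all under 0.05) were read for the promoter windows and support no value printed here. Footprints were used as positions. The depth in reads is unknown; Poisson intervals assume that 1 step is 1 cut and cover counting error only.

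Genes came from GENCODE M21, and sequences from RefSeq on GRCm38. Overlaps, distances, CpG and word counts were computed in Python 3.11.15 with numpy 2.4.6, pandas 2.3.3 and pysam 0.24.0; the overlap, distance and locus functions were tested on simulated data. All members were named, and of each other pathway list the 2 leading genes and those without a peak. The members, lists and words were chosen with earlier results of these data known. The labels number the libraries as biological replicates but do not say that animals differ, so their spread may be partly technical. Alternatives were a stricter list, equal peak numbers, other windows, starts, flanks and overlaps, and each library alone. Vamp7 and Stn2, by these names, were not found in the annotation and were not used.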

Additional observations from a re-analysis of the deposited data

How the results depend on the processing

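Counts of open promoters moved little: 44 members open in both libraries became 39 with the stricter list, 44 with a window of 2000 bp, 42 with the first coding start only, 42 with equal numbers of peaks, and 44 to 46 with a single library. The median promoter values moved by less than the SD between the libraries' medians, a wide bound since the libraries differ throughout, and the log2 ratio by less than its SD over members. Of 350 values of single members that kept a peak, 8 moved by over 1.5 times. With the window of 2000 bp these were Ppfia4 (1.92 and 3.55) and Cplx2 (1.89 and 4.38). With the first coding start they were Syt5 (0.929 and 4.10) and, in replicate 2, Syt11 (0.479) and Rab3c (0.585). The 88 values with equal numbers of peaks could only stay the same or be lost, and none of the 84 with the stricter list moved so far. Lost values are not among the 350, such as Syt11 and Syt6 in replicate 1 with the first coding start. Distal counts depended on the choices. The 182 shared distal peaks became 90 with a flank of 10000 bp and 103 with the stricter list, and the median of 4 per member became 1.5 and 2; fewer peaks and shorter loci are what these settings admit. With a single library there were 242 to 647 distal peaks, with medians of 4.5 to 13: 647 without replicate 1 and 242 without replicate 2. Members with at least 1 distal peak stayed between 34 and 46 over the alternatives run, and members with a promoter footprint in both libraries between 41 and 45. No paired analysis was possible because there is 1 group. Depth in reads is unknown, and Sv2b, Syt6, Ppfia4, Rimbp2 and Doc2b had no replicate 1 promoter peak in the stricter list.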
